A study of Homo sapiens with 4 samples.

Results

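The 9 genes described here belong to the epithelial-mesenchymal transition (EMT) and were measured in GIST-T1 cells given a miR-34a mimic. They are the EMT transcription factors SNAI1, SNAI2, ZEB1, ZEB2, TWIST1 and TWIST2, the mesenchymal filament gene VIM, and the epithelial regulators GRHL2 and ESRP1. Members were all non-control probes whose gene name on the array is exactly one of these 9 symbols, which gave 16 of the 50599 probes and 9 of the 36337 gene names. Of the 16 probes, 9 could be tested, for 7 of the genes, because in 1 condition or both they stood well above background on each array, as did 21451 probes in all. The rule itself uses gene names and no measured value, although the genes were proposed with earlier results of these data known.

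GIST-T1, a human line in long-term culture, came from a gastrointestinal stromal tumor (GIST). Per transfection, 3000000 cells were given 100 pmol of either the miR-34a mimic (a small duplex RNA made to stand in for the natural miRNA) or a control RNA, and RNA was extracted 48 h afterwards. Each condition had 2 one-color Agilent arrays, and all 4 arrays came from this single cell line. In the same study Matrigel invasion by cells given the mimic was assayed, but the arrays hold no invasion readout, so no relation between these genes and invasion was tested.

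In EMT, epithelial cells loosen their junctions and take on the shape and movement of mesenchymal cells. SNAI1 and SNAI2 (zinc finger repressors), ZEB1 and ZEB2 (zinc finger and homeodomain repressors) and TWIST1 and TWIST2 (basic helix-loop-helix factors) repress epithelial genes such as CDH1, while GRHL2 and ESRP1 maintain the epithelial state. miR-34a is known for repressing SNAI1, and the miR-200 family for repressing ZEB1 and ZEB2. GISTs are mesenchymal tumors, so that several of these genes can be expressed in them without any transition having taken place.

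The mature sequences of both miRNA families are shown because a miRNA selects its targets mainly through its seed. The sequences and their GRCh38.p14 positions are from RefSeq, and capitals mark the seed, bases 2 to 8 from the 5′ end.
hsa-miR-34a-5p: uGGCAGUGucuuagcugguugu
hsa-miR-449a: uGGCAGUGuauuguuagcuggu
hsa-miR-200c-3p: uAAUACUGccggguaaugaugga
hsa-miR-141-3p: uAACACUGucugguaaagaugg
miR-34a-5p lies on the minus strand at chr1:9151735-9151756. Its seed is shared with miR-449a. Of the 2545 mature human miRNAs in the set searched, 3 hold it (miR-34a-5p, miR-449a and miR-449b-5p). This need not be a full count of the miRNAs with this seed. Aligned position by position, the seed of miR-200c-3p has 3 of 7 bases, and that of miR-141-3p 4 of 7 bases, in common with that of miR-34a-5p. The letters CACTGCC, to which the miR-34a seed pairs, were searched on the strand printed for each probe and occurred in 0 of the 16 member probes and in 220 of the 50599 probes (0.435%). A probe covers only 60 bases of a transcript, so this says nothing about the rest of it.

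SNAI1 was lower on both mimic arrays and had the smallest p of the members. VIM was slightly higher on both mimic arrays, and ZEB1, ZEB2 (brighter probe), SNAI2 and TWIST2 differed by at most 1.17-fold. TWIST1 and the second ZEB2 probe lay close to background, and the brighter ZEB2 probe was dim as well. No level could be given for GRHL2 and ESRP1. Values below are log2 processed signals minus the 75th percentile of the array, so that 0 is the 75th percentile. They are compared within a probe only, since signals of different probes are not on a common scale.

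The SNAI1 probe (A_23_P131846, hg19 chr20:48605170-48605229, plus strand) gave 0.59 and 0.61 with the mimic and 1.24 and 1.29 with the negative control. Before scaling, the deposited processed signals were 337 and 345 with the mimic and 531 and 530 with the negative control. The conditions did not overlap, and the replicates differed by 0.0196 with the mimic and 0.0544 with the negative control. The difference was -0.66 (SE 0.0548, 95% interval -0.82 to -0.50), a signal 63.3% of that in the negative control. By limma with Benjamini-Hochberg adjustment over all tested probes the adjusted p was 0.0936, which missed 0.05. No tested probe had a smaller one, but others had the same value, among them PDGFRA, HDAC1, BCL2, KIT and TAGLN. The second ZEB2 probe had it too, at an unadjusted limma p of 0.0014, so this adjusted p does not set SNAI1 apart. The unadjusted limma p was 0.00053 for SNAI1 and smaller for PDGFRA (8.2e-05) and HDAC1 (0.00035). With a variance trend in limma the adjusted p was 0.00994, and after normexp background correction the difference was -0.56 with an adjusted p of 0.0263, under the 1.5-fold threshold. Of the 21451 tested probes, 841 (3.92%) were as low or lower.

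SNAI2, the closest relative of SNAI1 in the list, was not lower with the mimic. Its probe (A_23_P169039) gave -0.86 and -0.91 with the mimic and -1.28 and -0.94 with the negative control. The conditions did not overlap, but the gap was narrow and the negative control arrays stood further apart than the mimic arrays. The difference was 0.22 (SE 0.139, 95% interval -0.18 to 0.63, limma adjusted p = 0.383), and its interval reached from 0.882-fold to 1.55-fold. Leaving out 1 array at a time moved it between 0.05 (without negative control replicate 1) and 0.40 (without negative control replicate 2).

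**Figure D1:**
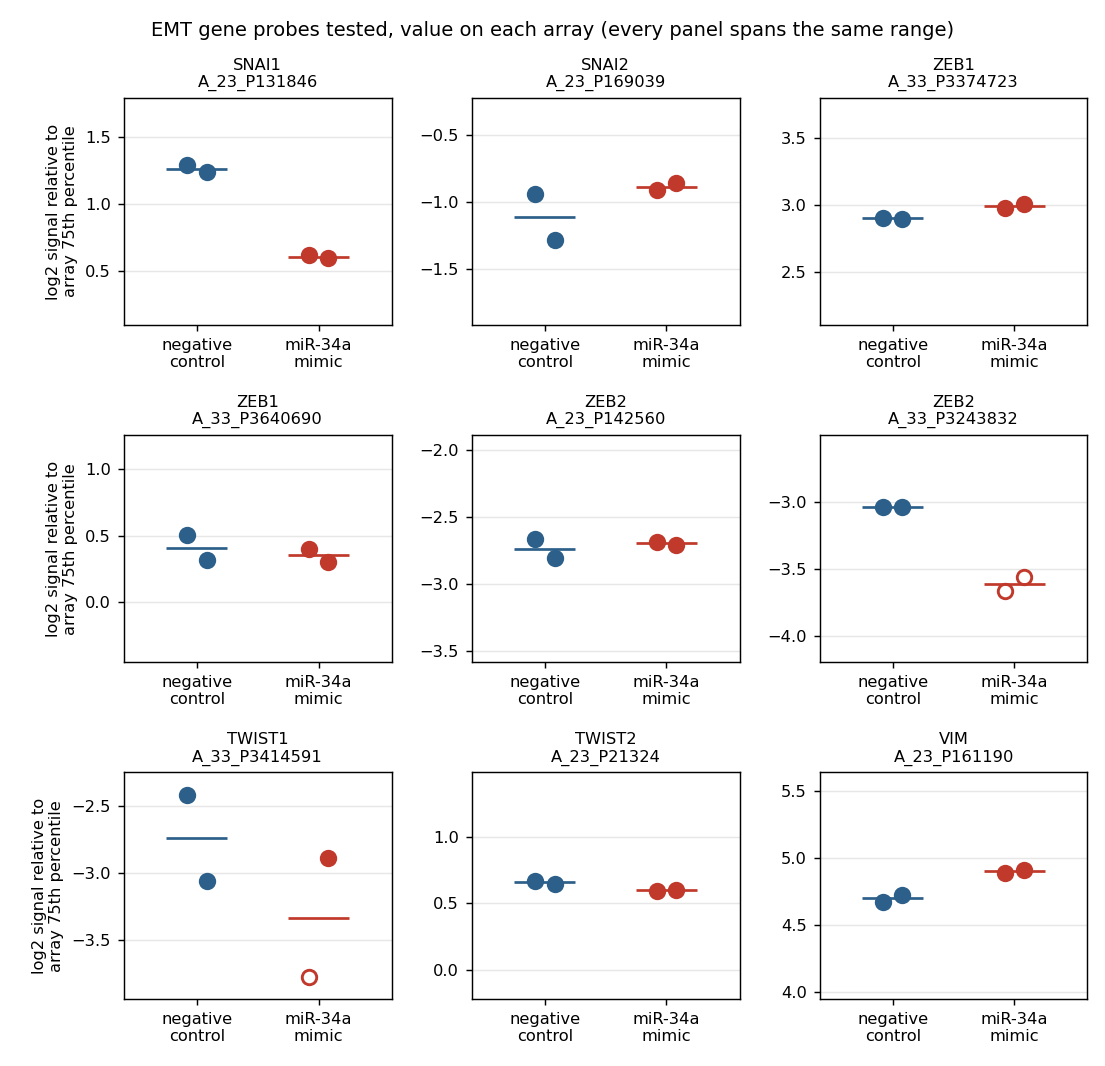
Log2 signal relative to the array 75th percentile (vertical axis) of the 9 tested probes in the negative control (blue) and the miR-34a mimic (red), with 1 point per array, a bar at the mean and open points where the probe was not well above background. SNAI1 lies at 0.59 and 0.61 with the mimic against 1.24 and 1.29 with the negative control, while both ZEB1 probes, the brighter ZEB2 probe and TWIST2 lie nearly level.

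The 2 ZEB1 probes, whose starts are 1802 bases apart on chromosome 10, were both well above background on all arrays. The first (A_33_P3374723) gave 3.005 and 2.98 with the mimic and 2.90 and 2.90 with the negative control, a difference of 0.09 (95% interval -0.06 to 0.24, limma adjusted p = 0.346). The second (A_33_P3640690) gave 0.30 and 0.40 with the mimic and 0.32 and 0.50 with the negative control, a difference of -0.06 (95% interval -0.34 to 0.22, limma adjusted p = 0.717). The mimic values were higher without overlap for the first probe and overlapped the negative control for the second. The intervals ran from 0.961-fold to 1.18-fold and from 0.793-fold to 1.16-fold, so that a decrease of the size seen for SNAI1 lay outside both.

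ZEB2 had 3 probes, which did not give the same picture. The probe detected on all arrays (A_23_P142560, hg19 chr2:145146261-145146320, minus strand) gave -2.71 and -2.68 with the mimic and -2.81 and -2.66 with the negative control. These overlapped, and the difference was 0.04 (95% interval -0.18 to 0.26, limma adjusted p = 0.749). The probe was dim, with processed signals of 34 and 35 with the mimic and 32 and 34 with the negative control. With a variance trend its interval was wider, from 0.746-fold to 1.42-fold, and with quantile normalization the difference was 0.15. The second (A_33_P3243832), 36102 bases away, gave -3.56 and -3.67 with the mimic, where it was not well above background, and -3.04 and -3.04 with the negative control, where it was. The probe was tested only because the negative control arrays passed the filter, which favors a lower value with the mimic, so its p is not read as support. The measured signal was 1.49-fold lower with the mimic (limma adjusted p = 0.0936, or 0.193 with a variance trend), which is not a lower bound. After normexp correction the difference was -0.18 against -0.58. The third probe (A_21_P0000590), designed on a non-coding transcript record, stayed near background on all 4 arrays.

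TWIST1 was measured near the detection limit. Its tested probe (A_33_P3414591) gave -2.89 and -3.78 with the mimic, the latter not well above background, and -3.06 and -2.41 with the negative control. The conditions overlapped and the replicates of each condition differed by more than the condition means. The difference was -0.60 (SE 0.415, 95% interval -1.81 to 0.62, limma adjusted p = 0.425), and it moved to -0.15 without mimic replicate 2 and to -1.04 without mimic replicate 1. The other TWIST1 probe stayed near background throughout.

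TWIST2 was nearly level. Its detected probe (A_23_P21324, hg19 chr2:239832044-239832103, plus strand) gave 0.60 and 0.59 with the mimic and 0.65 and 0.67 with the negative control. The mimic values were lower without overlap, although the gap was small. The difference was -0.06 (95% interval -0.21 to 0.09, limma adjusted p = 0.507), or from 0.865-fold to 1.07-fold. The other 2 TWIST2 probes, designed on the RefSeq transcript, stayed near background throughout. The detected probe was designed on another transcript record, not matched to a RefSeq gene, and starts up to 36440 bases from them. The TWIST2 values thus rest on this probe alone.

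VIM encodes vimentin, the intermediate filament protein of mesenchymal cells. Its probe (A_23_P161190, plus strand of chromosome 10) is annotated to hg19 chr10:17278347-17279256, a span longer than the 60-base probe, as for a probe across an exon junction. It gave 4.91 and 4.89 with the mimic and 4.73 and 4.68 with the negative control. The mimic arrays were higher without overlap, and the deposited processed signals were 6724 and 6682 against 5966 and 5536. The difference was 0.20 (SE 0.0546, 95% interval 0.04 to 0.36), a 1.15-fold higher signal. The limma adjusted p was 0.158, and 0.045 with a variance trend.

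GRHL2, a grainyhead-like transcription factor of epithelia, had 2 probes, and ESRP1, an epithelial splicing regulator, had 1. None of these 3 probes was well above background on any array, so that neither a level nor a fold is given for these genes. Among 25 other epithelial genes, 13 likewise had no probe well above background on any array, among them CDH1, the junction protein E-cadherin. EPCAM, KRT8 and KRT18 were detected on all 4 arrays.

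**Figure D2:**
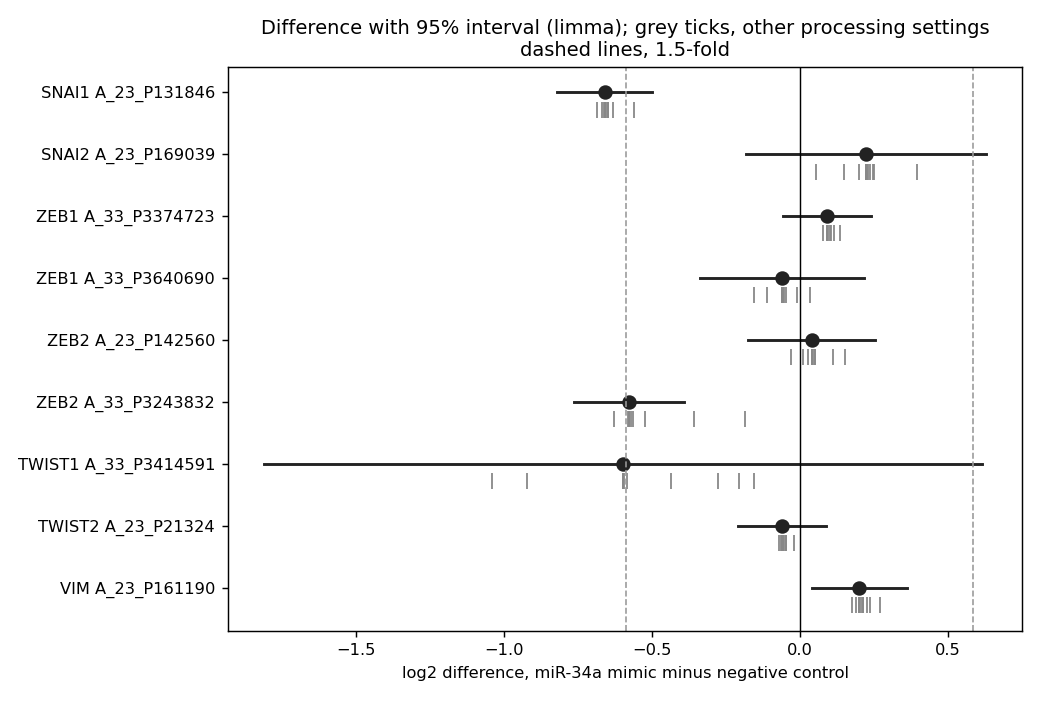
Log2 difference, miR-34a mimic minus negative control (horizontal axis), of each tested member probe, as a point with its 95% limma interval, with grey ticks for the values under the other processing settings and dashed lines at 1.5-fold. SNAI1 (-0.66) is the one probe detected on all arrays whose point lies beyond the lower dashed line, and the interval of TWIST1 (-1.81 to 0.62) is the widest.

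Of the 9 tested probes, 7 were detected on all 4 arrays, and the other 2 (TWIST1 and the second ZEB2 probe) were tested only through the negative control, which favors a lower value with the mimic. The counts that follow include them and are a description. Over the 9 probes, 2 (SNAI1 and TWIST1) were lower by over 1.5-fold, against 5% of all tested probes, and 0 were higher by over 1.5-fold, against 2.04%. Where detection on all 4 arrays was required, 1 (SNAI1) was lower by over 1.5-fold. The 5% is over all tested probes, of which 20065 were detected on all 4 arrays, and no share is given for those alone. Both criteria together, over 1.5-fold lower and an unadjusted limma p under 0.05, were met by 1 member probe (SNAI1), against 2.73%. At an unadjusted limma p under 0.05, 2 were lower (SNAI1 and the second ZEB2 probe), against 12.7%, and 1 was higher (VIM), against 11.7%. At an adjusted p under 0.05, limma called 0 member probes and 0% of all tested probes, although 5245 (24.5%) had an unadjusted p under 0.05. With a variance trend it called 2 member probes, against 7.55% of all tested probes: SNAI1 lower, against 4.04%, and VIM higher, against 3.51%. The conditions did not overlap, with the mimic lower, for 3 member probes against 32.4%, and with the mimic higher for 3 against 28.4%. The median difference was -0.06 over the member probes and -0.02 over all tested probes.

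**Figure D3:**
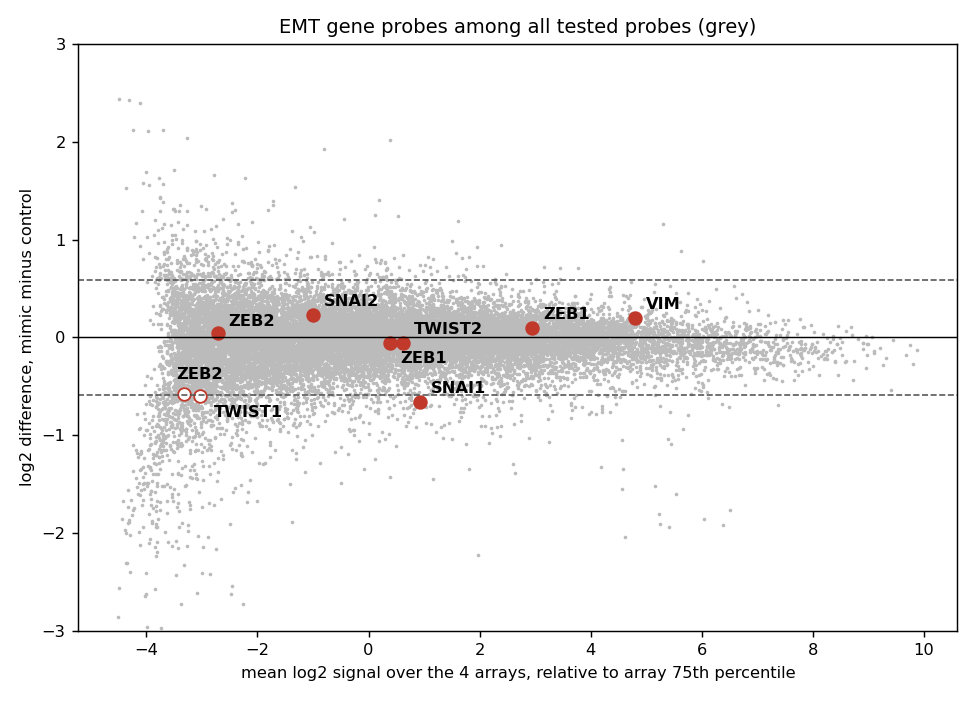
Log2 difference, mimic minus control (vertical axis), against the mean log2 signal relative to the array 75th percentile (horizontal axis) for all tested probes (grey) and the member probes (red, open where not well above background on every array); 7 grey probes lie outside the vertical range and dashed lines mark 1.5-fold. SNAI1 lies below the lower dashed line at a mid-range signal, whereas TWIST1 and the second ZEB2 probe lie near that line among the dim probes at the left.

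Differences between probes of the same arrays do not depend on a shift of a whole array, although quantile normalization and normexp can alter them. The change of SNAI1 was therefore also set against that of the members detected on all 4 arrays. SNAI1 was lower by more than SNAI2, with a difference between the changes of -0.88. Against ZEB1 this value was -0.75 and -0.60 for its probes, against the brighter ZEB2 probe -0.70, against TWIST2 -0.60 and against VIM -0.86. No such value is given against TWIST1 and the second ZEB2 probe, which were not well above background on every mimic array. These are descriptions with no test.

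Related genes were described with 1 probe per gene, the brightest tested one. For comparison with the counts of this and the following lists, 12.7% of all tested probes were lower and 11.7% higher at an unadjusted limma p under 0.05. Among 17 other EMT transcription factors, 12 were tested, with a median difference of -0.09. At an unadjusted limma p under 0.05, 3 of them, ETS1 and LEF1 included, were lower and 0 higher, and 0 passed 1.5-fold. Of the 10 tested epithelial genes 2 were lower and 3 higher at that p (median -0.09), and none at that p passed 1.5-fold.

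Of 19 tested mesenchymal genes, 5 were lower and 3 higher at an unadjusted limma p under 0.05, with a median of -0.07. FBN1, which encodes the matrix protein fibrillin, was lower (-0.67, limma adjusted p = 0.134). TAGLN, an actin-binding protein of smooth muscle, was higher for both of its probes (0.68 and 0.53), and so was CTGF, a matricellular protein (0.65, limma adjusted p = 0.0947). CDH2, which encodes N-cadherin, was not detected on any array.

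Of the 9 tested intermediate filament genes other than VIM (with the linker PLEC), 2 were lower and 3 higher at an unadjusted limma p under 0.05, with a median of 0.11. LMNB1, which encodes lamin B1, was higher by 0.63 (limma adjusted p = 0.0947). The desmin gene DES was among those lower (-0.40), so that VIM and DES, both cytoplasmic filaments, had differences of opposite sign.

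Genes whose products bind or turn over SNAI1 and its relatives gave a median of 0.04 over 17 tested genes, with 2 lower and 4 higher at an unadjusted limma p under 0.05. HDAC1, a histone deacetylase recruited by SNAI1, had signals of 4.10 and 4.11 with the mimic and 4.79 and 4.79 with the negative control. The conditions were far apart relative to the replicates, with a difference of -0.68 (limma adjusted p = 0.0936).

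Among 14 tested genes often studied as miR-34a targets, which include SNAI1, 9 were lower and 2 higher at an unadjusted limma p under 0.05. These stand against 12.7% and 11.7% of all tested probes. The median was -0.36, against -0.02 over all tested probes. Besides SNAI1, the signals of PDGFRA (-1.55), BCL2 (-0.77), NOTCH1 (-0.72) and FOXP1 (-0.70) were lower by over 1.5-fold at the brightest probe. The other FOXP1 probes, also detected on all arrays, differed by -0.48 and -0.16, under 1.5-fold, and the second probes of BCL2 and NOTCH1 by -0.60 and -0.86. MET and CDK6, also on this list, were not detected. This list was drawn up with earlier results of these data known and is not independent evidence of its direction.

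**Figure D4:**
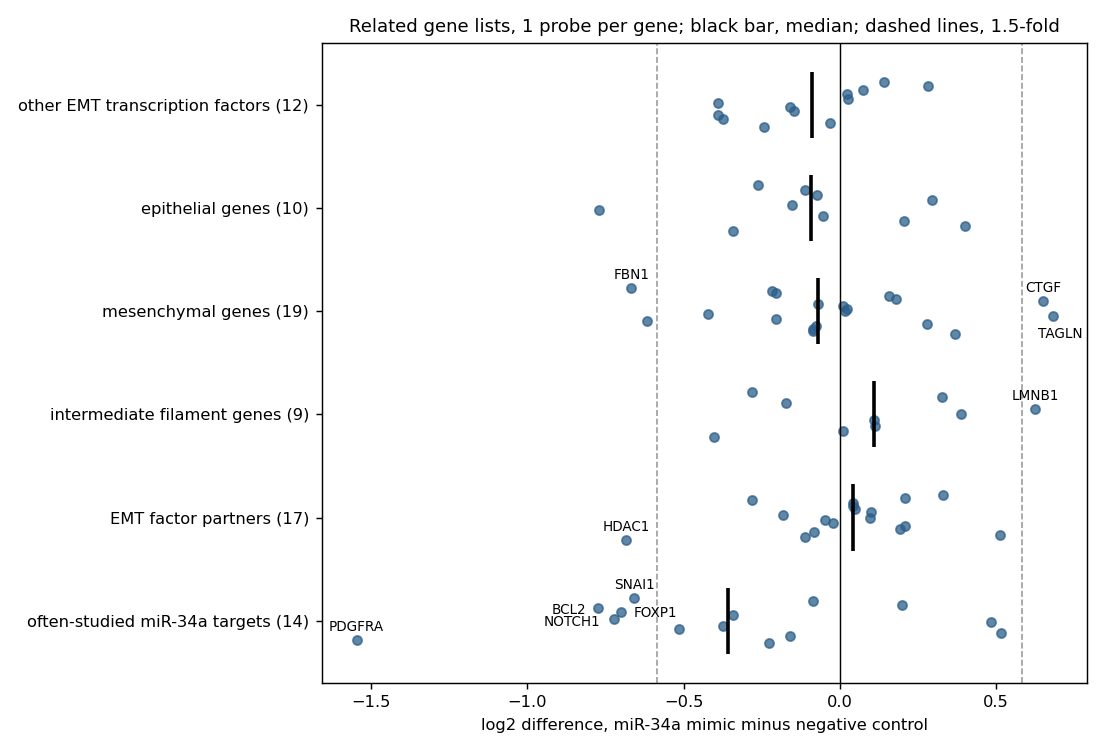
Log2 difference, mimic minus control (horizontal axis), of each tested gene of 6 related lists (vertical axis, number of tested genes in brackets), with 1 point per gene, a black bar at the median and names for genes past 1.5-fold at an unadjusted limma p under 0.05. The medians of the first 5 lists lie between -0.09 and 0.11, and that of the miR-34a targets at -0.36.

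ZEB1-AS1, the antisense neighbor of ZEB1, was examined after its values were seen. One of its probes was lower (-0.36, limma adjusted p = 0.102) and the other level (-0.02). As a check of the cells, all 5 GIST markers, among them KIT, were detected on every array, and the 3 KIT probes differed by -0.75 to -0.71. Of 3 endothelial markers 1 was tested, CDH5, and PECAM1 was not detected. CDH5 was tested only because the negative control arrays passed the filter, which favors a lower value with the mimic. It was lower with the mimic, where it was not well above background (limma adjusted p = 0.107 with a variance trend), and this is not read as a decrease. Of the 5 probes of PTPRC, a leukocyte marker, 0 were detected on all arrays. Their part in the member results was not tested.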

How the data were processed

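The authors deposited, per array, spot intensity values from Agilent Feature Extraction (10.7 in the submitters' processing notes, 10.7.3.1 in the file headers), background-subtracted and spatially detrended but not scaled between arrays, and a table of the same intensity values, within 0.496% of the scanner output. Control spots were left out, except in fitting normexp. Outlier spots (293 to 424 of 58717 per array) were left out of the probe averages but not of the 75th percentile, and 0 spots were saturated. Log2 signals were shifted by the array's 75th percentile, and spots of a probe averaged. Between 41.8% and 45.2% of probes were well above background. Conditions were compared with limma 3.58.1 (lmFit, eBayes) in R 4.3.3, with Benjamini-Hochberg adjustment over 21451 probes, after the calculations were tested on simulated data. The 1.5-fold threshold follows the study. An exact permutation test of 2 against 2 arrays cannot go below p = 0.33. Labels do not say that replicates were separate cultures, so p-values measure only the spread between these arrays. All arrays shared 1 slide and scan. The number of arrays limits the precision. The array annotation supplied gene names and hg19 positions.

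Members and lists were chosen with earlier results of these data known. Every member probe was described. From each other list, genes past 1.5-fold at an unadjusted p under 0.05 were named (at most 5), with KIT and PDGFRA as a check. Other genes were named after their values were seen. Results were recomputed under 13 other settings listed at the outset and 1 added after seeing the data.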

Additional observations from a re-analysis of the deposited data

How the results depend on the processing

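Over 14 alternatives, SNAI1 stayed lower (-0.69 to -0.56, Benjamini-Hochberg adjusted p 0.00994 to 0.354) and VIM higher (0.18 to 0.27, adjusted p 0.045 to 0.44). Of the differences, 2 reversed: the second ZEB1 probe to 0.035 without negative control replicate 2, and the brighter ZEB2 probe to -0.030 without negative control replicate 1 (to 0.11 without negative control replicate 2). The cause was not tested.

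Of the member counts, 2 probes lower by over 1.5-fold became 0 with normexp, 1 with quantile normalization, 1 where detection on all arrays was required and 1 to 3 with an array left out. With no filter 3 were lower and, where 0 had been, 1 was higher. The probes so added, of TWIST2 (-1.17) and ZEB2 (0.70), were not well above background on any array and are not read as changes. The count of 0 at an adjusted p under 0.05 became 1 with normexp (SNAI1) and 2 with a variance trend (SNAI1 and VIM). The scaling was also changed after the results were seen, to the 75th percentile of probe averages, to find why counts over the array differed from those of an earlier analysis of these data. It is kept only as an added alternative: it gave 1 member probe lower by over 1.5-fold, since TWIST1 moved to -0.58, and 1028 against 1073 probes lower over the whole array.

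With normexp the list medians were -0.048 (other EMT transcription factors), -0.082 (epithelial) and -0.28 (miR-34a targets), and genes past 1.5-fold at an unadjusted p under 0.05 numbered 0 for mesenchymal genes (3 as reported) and 3 for miR-34a targets (5 as reported). With quantile normalization the epithelial median was -0.053 and the mesenchymal median 0.012. With no filter the medians were -0.15 (other EMT transcription factors) and -0.11 (epithelial), and those counts 1, 1 and, for intermediate filament genes, 2. The variance trend gave 1 epithelial gene, and the added scaling an epithelial median of -0.078. With an array left out, medians ranged from -0.14 to -0.057 (other EMT transcription factors), -0.14 to -0.030 (epithelial), -0.077 to 0.047 (mesenchymal), 0.035 to 0.12 (intermediate filament) and -0.41 to -0.31 (miR-34a targets), and counts from 0 to 2 (epithelial), 1 to 3 (mesenchymal) and 0 to 1 (intermediate filament). The lone array was then assumed to vary like the other condition's.

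Same-numbered arrays did not deviate together (correlation -0.0276), so the numbers were not taken to pair them. With the replicate block SNAI1 differed by -0.66 (limma adjusted p = 0.226) and the block left 2 member probes lower by over 1.5-fold and 0 at an adjusted p under 0.05.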
